A study of Homo sapiens with 8 samples.

Results

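Cells switch on a shared set of genes when oxygen is short, through the hypoxia-inducible factors (HIF), and the transcripts of that pathway were compared here between TRAIL-sensitive and TRAIL-resistant H460 cells. The set comprised 37 genes: 3 HIF subunits, 5 genes of the enzymes and the ligase adaptor that restrain HIF, and 29 genes known as HIF or hypoxia targets outside glycolysis. All 37 were found among the 19775 genes measured. Each was read through the brightest of its probe sets with 1 gene symbol (by the mean of the 8 arrays). H460 is a cell line from a human large cell carcinoma of the lung, and TRAIL is a ligand that triggers apoptosis through death receptors. The 4 sensitive arrays hold control H460 cells. The 4 resistant arrays hold H460 cells given TRAIL every day over 6 months at doses too low to kill them, until they had become resistant. The labels name no low-oxygen treatment in either group, and do not say whether the resistant cells are 1 clone or a pool. Nor do they say whether arrays came from separate cultures, so the spread behind the p-values may be technical only.

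A HIF dimer joins an oxygen-regulated alpha subunit (HIF1A or EPAS1) to the stable partner ARNT. With oxygen present, prolyl hydroxylases of the EGLN family mark the alpha subunit, and the VHL ligase complex then sends it for degradation. HIF1AN, an asparaginyl hydroxylase, blocks the recruitment of coactivators. Most of this control acts on protein, which arrays do not measure. EGLN1 and EGLN3 are themselves HIF targets, as negative feedback.

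Most hypoxia targets were lower in resistant cells, while the HIF alpha subunits were not. Of the 29 targets, 27 fell and 2 rose, with a median change of -1.11 on the log2(signal + 1) scale, against -0.03 over all genes measured. The members and the other lists below were chosen with earlier results of these data known, so such counts are a description only. Among the 8 subunits, hydroxylases and VHL, 2 fell, 1 rose and 5 did not pass, with a median change of 0.03. That median was -0.03 with genes dimmer than the median probe set left out, which drops EGLN2. The 2 that fell, EGLN1 and EGLN3, are themselves HIF targets. The words rose and fell stand for an adjusted p below 0.05 in limma (Benjamini-Hochberg adjustment over all genes). By that rule 30.3% of all genes passed, 15.6% with a fall and 14.7% with a rise. These shares, and those over all genes given below, include 8141 genes dimmer than the median probe set. Of the 37 members 1 was so dim. With dim genes left out of the fit, 3408 of 11634 genes fell and 3277 rose, so the shares are higher among bright genes. At least 2-fold falls were seen in 17 of the 29 targets and in 4.64% of all genes. At least 2-fold rises were seen in 0 targets and in 3.12% of all genes. All 4 resistant arrays lay below all 4 sensitive arrays for 27 targets and above them for 2, where 17.4% of all genes lay below and 16.5% above. The median deviation of the targets from their sensitive mean was between -1.15 and -1.08 on the resistant arrays and between -0.02 and 0.02 on the sensitive ones. In RNA from whole cultures, less RNA per cell and fewer cells with the RNA cannot be told apart.

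**Figure D1:**
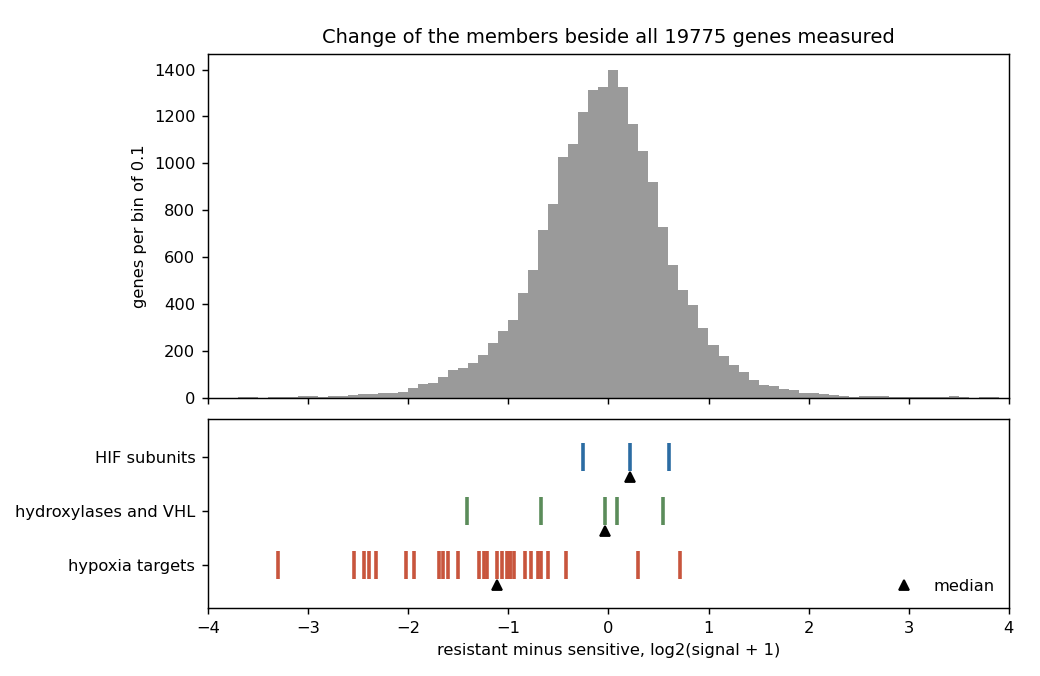
Upper panel: histogram of the change in log2(signal + 1), resistant minus sensitive, of all genes measured, in bins of 0.1 (genes beyond the axis are not drawn). Lower panel: 1 stroke per member by role, with a triangle at each median; the targets centre on -1.11 and the HIF subunits on 0.21.

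The 4 arrays of each group were alike, with mean correlations over genes of 0.955 to 0.965 within groups and 0.937 to 0.943 between them. Array medians lay between 32.6 and 37.5. The 3′ minus 5′ difference of the GAPDH control probe sets, a measure of RNA quality, differed by 0.02 between groups (exact two-sided permutation test over 70 assignments, p = 0.686, adjusted over 3 measures 0.686). That of ACTB was 0.23 in the sensitive and 0.11 in the resistant arrays without overlap (exact p = 0.0286, the smallest this design allows, adjusted 0.0858), so on this measure quality and group cannot be told apart. Of 6 epithelial markers, KRT8 (11.41 and 11.36 in sensitive and resistant arrays) and KRT18 (13.18 and 13.12) were bright, while EPCAM and CDH1 lay below the level of the median probe set, 5.01, in both groups. The summed signal of the 6 was 17311 to 20119 in sensitive and 13622 to 16353 in resistant arrays. KRT19 fell by 1.24 ± 0.10 (SE) and KRT7 by 0.37 ± 0.10. Of 4 lung lineage markers, NKX2-1 and SCGB1A1 lay below the median level, SFTPB fell by 0.63 ± 0.19 (limma adjusted p = 0.0469) and SFTPC did not pass. Of the markers of other cell types, 3 of 5 for fibroblasts, 3 of 4 for leukocytes and 3 of 4 for endothelium lay below the median level. Summed signals of these lists were at most 429 on any array. The fibroblast sum was lower in resistant arrays (208 to 270 against 304 to 429). The part of these measures in the changes below was not tested.

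HIF binds DNA at the letters ACGTG or GCGTG. Promoter sequence was at hand for 28 members (RefSeq, GRCh38.p14), of which the 250 bases before each start were searched on both strands. VEGFA, VHL, LOXL2, BNIP3L, RAB20, NDRG1, JMJD6, STC1 and ZNF395 were not matched. Sequences are shown for the largest fall by the chosen probe sets (ANKRD37), the promoter with the most matches (BNIP3), a feedback hydroxylase that fell (EGLN3) and genes that rose (PLOD2, EPAS1). Capitals mark ACGTG or GCGTG, or their complements CACGT and CACGC, and a run of CACGTG matches on both strands. The windows are chr4:185396591-185396840 (plus strand) for ANKRD37, chr10:131981924-131982173 (minus) for BNIP3, chr14:33951075-33951324 (minus) for EGLN3, chr3:146161185-146161434 (minus) for PLOD2 and chr2:46297157-46297406 (plus) for EPAS1, each printed 5′ to 3′ on the gene's strand and ending at the base before the start.
ANKRD37: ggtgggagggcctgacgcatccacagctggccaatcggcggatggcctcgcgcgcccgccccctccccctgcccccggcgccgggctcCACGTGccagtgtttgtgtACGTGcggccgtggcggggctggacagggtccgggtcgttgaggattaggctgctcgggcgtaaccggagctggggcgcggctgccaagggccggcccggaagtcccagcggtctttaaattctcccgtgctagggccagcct
BNIP3: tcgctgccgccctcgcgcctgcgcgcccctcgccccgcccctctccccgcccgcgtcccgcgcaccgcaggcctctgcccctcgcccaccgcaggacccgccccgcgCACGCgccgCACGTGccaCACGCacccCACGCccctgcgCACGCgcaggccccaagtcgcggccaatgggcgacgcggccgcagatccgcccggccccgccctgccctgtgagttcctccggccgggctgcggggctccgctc
EGLN3: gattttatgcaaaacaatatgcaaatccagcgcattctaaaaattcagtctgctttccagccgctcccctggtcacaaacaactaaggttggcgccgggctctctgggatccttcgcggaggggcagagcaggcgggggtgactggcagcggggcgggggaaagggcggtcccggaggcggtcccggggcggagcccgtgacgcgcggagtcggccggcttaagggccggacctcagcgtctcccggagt
PLOD2: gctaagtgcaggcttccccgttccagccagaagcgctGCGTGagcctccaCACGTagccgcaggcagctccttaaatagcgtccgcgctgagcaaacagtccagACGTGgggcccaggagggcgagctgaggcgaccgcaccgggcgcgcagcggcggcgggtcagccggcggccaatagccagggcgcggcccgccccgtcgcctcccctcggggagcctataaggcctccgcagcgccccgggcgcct
EPAS1: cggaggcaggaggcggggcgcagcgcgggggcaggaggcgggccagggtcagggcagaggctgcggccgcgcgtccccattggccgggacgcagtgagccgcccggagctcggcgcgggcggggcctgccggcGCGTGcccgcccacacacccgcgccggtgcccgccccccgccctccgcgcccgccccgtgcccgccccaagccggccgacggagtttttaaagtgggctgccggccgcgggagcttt

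ANKRD37 held 3 matches between 162 and 143 bases before its start, and BNIP3 held 6, the nearest 104 bases before it. EGLN3, which fell, held 0 in this window, and PLOD2, which rose, held 3. Of the 28 members, 23 (82.1%) held at least 1 match in any of their windows, as did 57.2% of the measured genes with a promoter sequence and 47.4% of all genes in the table. ACGTG alone was found in 18 of the 28 (64.3%), and in 25.6% of measured genes. These windows were also richer in G and C: the median was 68.8% for the windows of members and 62.0% for those of measured genes, so the shares are not on an equal base. Among the 22 members that fell 19 held a match, and among the other 6 it was 4. A match is a description of the letters, not of binding. Most members were listed because they are known HIF or hypoxia targets, so a higher share of matches can come from that choice alone.

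Of the 3 HIF subunits, EPAS1 rose, and HIF1A and ARNT did not pass. EPAS1, which encodes HIF-2 alpha, had signals of 2187 to 2509 on the sensitive arrays and of 3330, 3501, 3582 and 3633 on the resistant ones. All 4 resistant arrays were above all sensitive arrays, and EPAS1 rose by 0.61 ± 0.07 (SE, n = 4 per group, adjusted p = 0.000783), or 1.53-fold. A second EPAS1 probe set rose by the same amount, 0.61 ± 0.14. Averaged over all its probe sets, of which the dimmest was near background, the EPAS1 change was 0.65 and missed the threshold (adjusted p = 0.0563).

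HIF1A was measured by 1 probe set, with signals of 5506, 5851, 6126 and 5719 on sensitive arrays 1 to 4 and of 6471, 6873, 6495 and 7025 on resistant arrays 1 to 4. The groups did not overlap, but the difference was small, 0.21 ± 0.07, with a 95% interval of 0.05 to 0.37, and it did not pass (adjusted p = 0.0561). It did pass after quantile normalization (0.25, adjusted p = 0.0290), after median centring (0.28, 0.0438), with a pseudocount of 16 (0.21, 0.0483), with dim genes left out (0.21, 0.0170) and with an intensity trend (0.21, 0.00850). The value stayed above 0 under every alternative run, from 0.16 to 0.28. ARNT, the partner subunit, had signals of 170 to 232 and of 149 to 172, which overlapped. Its change of -0.25 ± 0.11 did not pass (adjusted p = 0.153), nor did any of its 6 other probe sets.

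The hydroxylases divided by gene. EGLN3, encoding the prolyl hydroxylase PHD3, had signals of 622, 518, 522 and 561 on the sensitive and of 198, 208, 197 and 230 on the resistant arrays. It fell by 1.41 ± 0.09 (adjusted p = 5.88e-05), or 2.66-fold. EGLN1, encoding PHD2, the main oxygen sensor of most cells, had signals of 3050 to 3377 and of 1878 to 2072 and fell by 0.68 ± 0.07 (adjusted p = 0.000404). Neither gene had overlapping groups, and the other probe sets of both, 3 for EGLN1 and 1 for EGLN3, fell too.

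EGLN2, encoding PHD1, had 1 probe set among those kept, near background, with signals from 1.46 to 9.92 over the 8 arrays. Probe sets with several gene symbols were left out, and whether any of them reads EGLN2 was not examined. The change of EGLN2 was 0.55 ± 0.57 (adjusted p = 0.548) and carries little information. Without sensitive array 1 and resistant array 4 together it came to 1.36 (adjusted p = 0.0259). HIF1AN changed by 0.09 ± 0.09 (95% interval -0.12 to 0.29, adjusted p = 0.514), with signals of 297 to 352 and 324 to 378. VHL varied more within than between groups: its signals were 107, 76.6, 149 and 75.6 in sensitive and 72.2, 82.3, 95.4 and 151 in resistant arrays, a change of -0.03 ± 0.30 (adjusted p = 0.958). The 95% interval of VHL, -0.74 to 0.68, leaves room for changes as large as that of EGLN1.

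**Figure D2:**
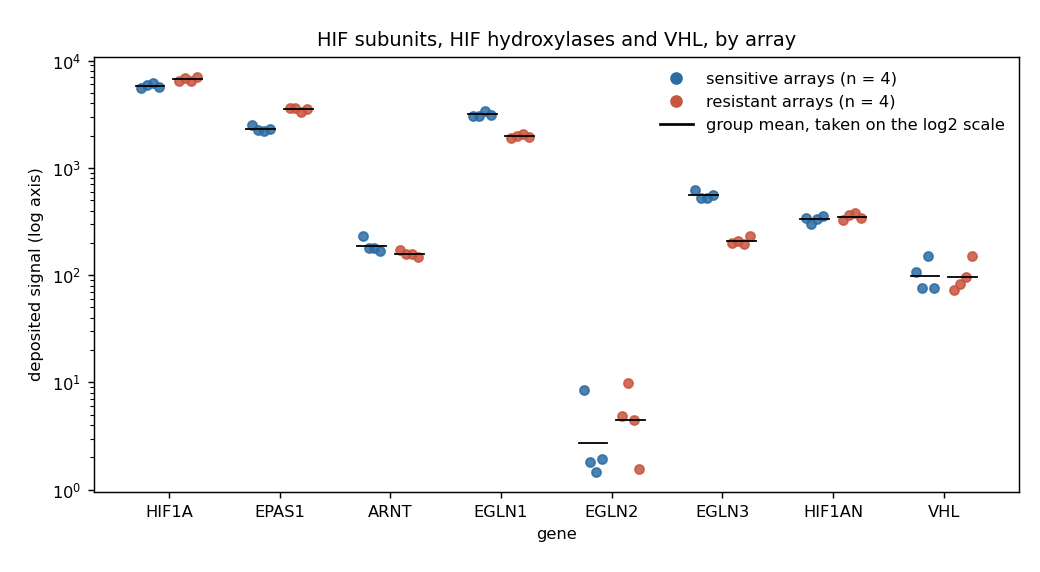
Deposited signal on a log axis of the HIF subunits, hydroxylases and VHL; each point is 1 array (4 sensitive, 4 resistant) and each line a group mean taken on the log2 scale. EPAS1 lies higher and EGLN1 and EGLN3 lower in all resistant arrays. HIF1A also lies higher in all of them, by a small difference that did not pass. ARNT, VHL and HIF1AN overlap, and EGLN2 lies below 10.

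Of 18 other genes listed for the HIF machinery, 16 were measured: 3 fell (18.8%), 4 rose and 9 did not pass. Of all genes 15.6% fell and 14.7% rose, and nothing particular to the list is read from so few. SIAH2, a ubiquitin ligase that targets prolyl hydroxylases for degradation, fell by 1.29 ± 0.10 (adjusted p = 9.63e-05), and P4HTM, a transmembrane prolyl hydroxylase, by 0.47 ± 0.08. The scaffold CUL2 and the adaptor ELOC of the VHL ligase complex rose by 0.69 ± 0.11 (adjusted p = 0.00239) and 0.59 ± 0.11 (adjusted p = 0.00518). Of the other complex members, named after their values were seen, RBX1 rose by 0.46 ± 0.07, while the change of ELOB, 0.19 ± 0.08, missed the threshold (adjusted p = 0.120).

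Of the 4 secreted factors among the targets, 3 fell and 1 rose. ADM, the vasodilator peptide adrenomedullin, had signals of 3454, 3428, 3311 and 3400 on the sensitive and of 914, 785, 804 and 842 on the resistant arrays. ADM fell by 2.02 ± 0.07 (adjusted p = 6.54e-06), or 4.07-fold. ANGPTL4, an inhibitor of lipoprotein lipase, went from 2959 to 3843 down to 599 to 804, and its second probe set fell by 2.51 ± 0.10. VEGFA, the main growth factor for blood vessels, fell less, by 0.83 ± 0.07 (adjusted p = 0.000160), from signals of 2112 to 2387 to signals of 1227 to 1324, and its 3 other probe sets changed by -0.80 to -0.69.

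STC1, the secreted glycoprotein stanniocalcin, moved the other way. Its signals were 3146, 3013, 3062 and 2858 on the sensitive and 3656, 3532, 3514 and 4190 on the resistant arrays, without overlap. STC1 rose by 0.30 ± 0.08 (adjusted p = 0.0306). The call was lost when replicate numbers entered as a block (adjusted p = 0.119) and without sensitive array 2, 3 or 4 or resistant array 1 or 2, with changes of 0.24 to 0.33 and adjusted p up to 0.0794 over the 8 arrays left out in turn. Its 2 other probe sets changed by 0.36 ± 0.09 and 0.47 ± 0.10, and both passed in the fit over all probe sets (adjusted p = 0.0310 and 0.0141), where the one used for the gene did not (adjusted p = 0.0753).

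All 4 targets that act at mitochondria fell. BNIP3L, a receptor for the removal of mitochondria by autophagy, had signals of 2802, 2689, 2731 and 2426 on the sensitive and of 820, 868, 820 and 862 on the resistant arrays, 3.15-fold lower. Its relative BNIP3 went from 8609 to 9295 down to 4048 to 4702, 2.02-fold lower. AK4, a mitochondrial adenylate kinase, fell by 0.99 ± 0.08 and FAM162A, a mitochondrial protein linked to hypoxic cell death, by 0.94 ± 0.09. Signals of AK4 were 1622 to 1916 on the sensitive and 843 to 961 on the resistant arrays, and those of FAM162A 5072 to 5938 and 2681 to 3140. All 4 genes were thus lower on each resistant array than on any sensitive one. The 4 other FAM162A probe sets and the 3 other AK4 probe sets fell as well.

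Genes of collagen modification and oxidative folding split. P4HA1 and P4HA2, catalytic subunits of collagen prolyl 4-hydroxylase, fell by 1.07 ± 0.06 (adjusted p = 3.77e-05) and 0.98 ± 0.10 (adjusted p = 0.000315). Signals of P4HA1 were 3240 to 3521 on the sensitive and 1609 to 1667 on the resistant arrays, and those of P4HA2 1566 to 1692 and 730 to 920. PLOD1, a collagen lysyl hydroxylase, fell by 0.70 ± 0.06, LOXL2, a lysyl oxidase that crosslinks collagen, by 0.77 ± 0.08, and ERO1A, the oxidase that drives disulphide formation in the endoplasmic reticulum, by 0.67 ± 0.07. PLOD1 went from 636 to 670 down to 389 to 411, LOXL2 from 2959 to 3483 down to 1785 to 1934, and ERO1A from 3042 to 3533 down to 2032 to 2130. None of these 5 genes had overlapping groups.

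PLOD2, the lysyl hydroxylase of collagen telopeptides, rose in the same cells in which PLOD1 fell. Its signals were 1492, 1960, 1820 and 1924 on the sensitive and 3019, 2885, 2967 and 2922 on the resistant arrays. PLOD2 rose by 0.72 ± 0.10 (adjusted p = 0.00152), or 1.65-fold, and its second probe set by 0.70 ± 0.09. The 2 genes thus lay apart by their own changes, -0.70 and 0.72, whose 95% intervals ended at -0.56 and began at 0.48; the difference between them was not tested. Averaged over their probe sets, P4HA1 (-0.64, adjusted p = 0.0835), P4HA2 (-0.37, 0.231) and LOXL2 (-0.24, 0.409) did not pass. For each of these the average takes in probe sets below the median level. The same holds for the only P4HA1 probe set without a cross-hybridisation suffix, which changed by -0.21 (adjusted p = 0.799).

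The 3 oxygenases of the JmjC type, which like the EGLN enzymes need oxygen, all fell. KDM3A, a demethylase of histone H3 lysine 9, had signals of 1898, 1703, 1773 and 1747 on the sensitive and of 847, 826, 812 and 804 on the resistant arrays, and fell by 1.11 ± 0.07 (adjusted p = 3.84e-05). KDM4B, a demethylase of the same residue, fell by 0.99 ± 0.09, from signals of 783 to 872 to signals of 391 to 477. JMJD6, a lysyl hydroxylase of nuclear proteins with signals of 1571 to 1930 and of 1279 to 1337, had the smallest fall of all targets that fell, 0.42 ± 0.09 (adjusted p = 0.00880), and with the mean of its probe sets, including 2 below the median level, it changed by -0.02 (adjusted p = 0.961).

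Transcription regulators among the targets fell without exception, in 5 of 5. RORA, a nuclear receptor, had signals of 1438, 1723, 1682 and 1690 on the sensitive and of 294, 278, 303 and 244 on the resistant arrays, 5.83-fold lower (adjusted p = 8.22e-06). Its 5 other probe sets above the median level changed by -3.11 to -2.10. MXI1, an antagonist of MYC, went from 4473 to 4932 down to 1401 to 1477, 3.24-fold lower. BHLHE40, a repressor of the clock and of metabolism genes, went from 6479 to 7001 down to 2139 to 2285, 3.03-fold lower. All 3 were at least 3-fold lower, with no overlap of the arrays. ZNF395, a zinc finger protein, went from 553 to 680 down to 207 to 224, 2.83-fold lower (adjusted p = 3.29e-05). CITED2, with signals of 1933 to 1967 and of 1173 to 1383, competes with HIF for coactivators and fell by 0.60 ± 0.07 (adjusted p = 0.000825). Averaged over its probe sets CITED2 changed by -0.38 (adjusted p = 0.0188). The only ZNF395 probe set without a cross-hybridisation suffix, a dim one, changed by -2.53.

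Each of the remaining 7 targets fell at least 2-fold. ANKRD37, an ankyrin repeat protein, had signals of 5382, 5230, 5067 and 5059 on the sensitive and of 471, 500, 560 and 571 on the resistant arrays, 9.88-fold lower (adjusted p = 2.30e-06). Only 0.0910% of all genes had a lower change. Averaged with its second probe set, which lies below the median level and did not pass, ANKRD37 changed by -1.51 (adjusted p = 0.0240) and was no longer the largest fall of the set. RAB20, a small GTPase of vesicle traffic, went from 3314 to 3640 down to 611 to 787, 5.25-fold lower. PPFIA4, a liprin, went from 516 to 630 down to 88.3 to 108, 5.45-fold lower. These 3 and RORA, ANGPTL4 and ADM were the members that fell at least 4-fold.

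INSIG2, which holds the sterol sensor SCAP in the endoplasmic reticulum, had signals of 1947, 1844, 1904 and 1966 on the sensitive and of 514, 477, 504 and 500 on the resistant arrays. INSIG2 fell by 1.94 ± 0.06 (adjusted p = 4.01e-06), and its arrays lay close together within each group. NDRG1, a growth-linked stress protein, fell by 1.30 ± 0.07, from signals of 2644 to 2971 to signals of 1124 to 1175, and DDIT4, an inhibitor of mTOR complex 1, by 1.22 ± 0.09. DDIT4 was bright in both groups, with signals of 13803 to 16103 and of 5921 to 6877.

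**Figure D3:**
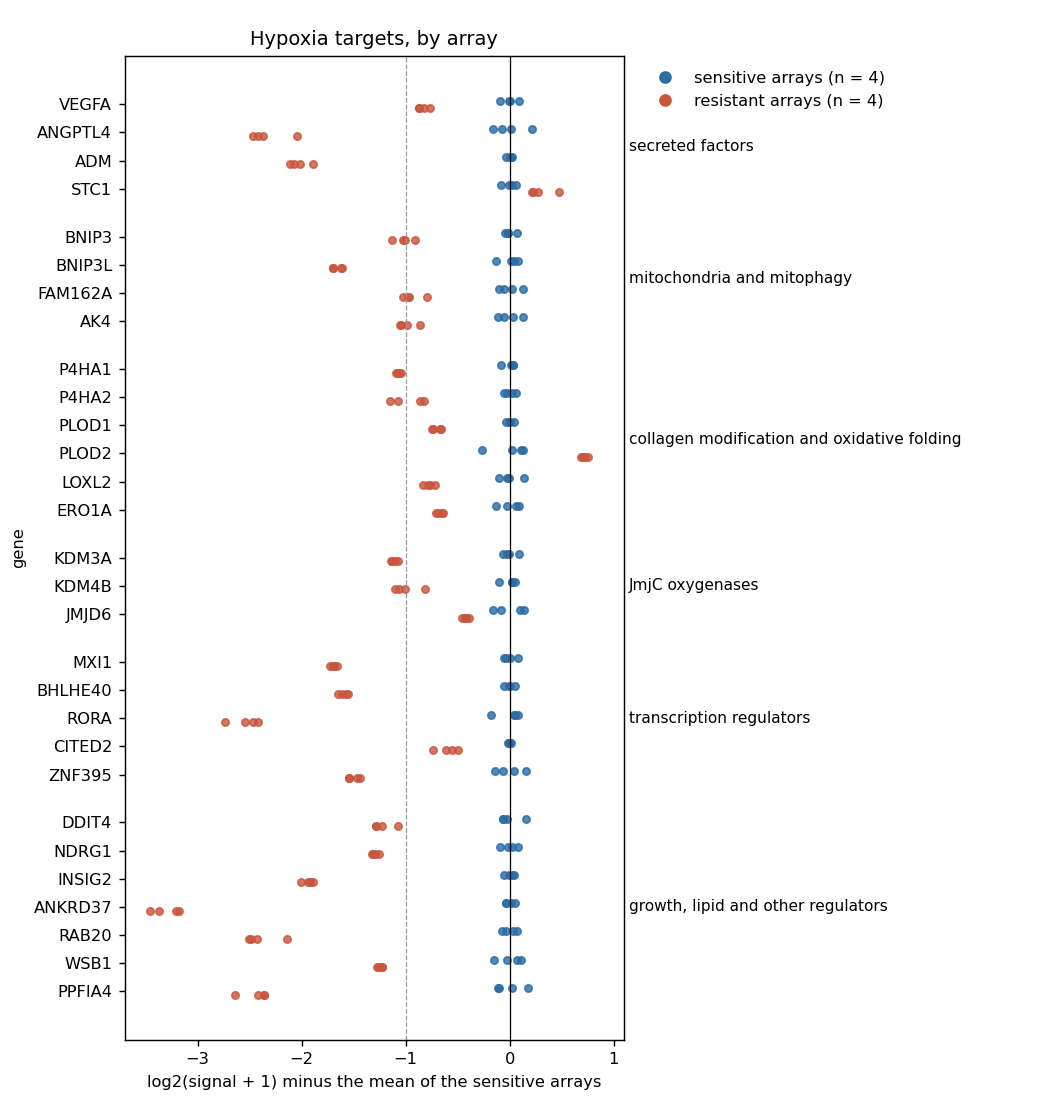
Level of each target on each of the 8 arrays, as log2(signal + 1) minus the mean of the 4 sensitive arrays; the dashed line marks -1, a 2-fold fall. Resistant arrays lie left of all sensitive arrays for 27 targets and right of them for STC1 and PLOD2.

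WSB1, a ubiquitin ligase subunit, changed by very different amounts on its 5 probe sets. The probe set used for the gene, with signals of 3934 to 4707 and of 1808 to 1873, fell by 1.24 ± 0.08 (adjusted p = 4.85e-05), and 2 others by 1.14 ± 0.08 and 1.38 ± 0.15. The remaining 2 fell by 3.57 ± 0.11 and 3.74 ± 0.20, from log2 levels of 10.79 and 10.16 to 7.22 and 6.42. The average over the 5 was -2.21. All 5 passed, and which parts of the transcript they read was not examined. The bright probe sets of WSB1 spanned 2.60 log2 units, and the next widest span in the set was that of RORA, 1.01.

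Probe sets not chosen for a gene moved mostly as the chosen one did. The 37 genes have 105 probe sets, and 23 genes have others above the median level, 48 in all. Of those 48, 35 fell, 4 rose and 9 did not pass, where 10.4% of all probe sets fell and 9.13% rose. The shares over all probe sets include those below the median level, so they are not on an equal base. No member had a bright probe set that passed against the direction of the chosen one. For 15 of the 18 genes that fell and had such probe sets, every one of them fell. The exceptions were CITED2, KDM4B and ZNF395, with 1 each that did not pass.

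**Figure D4:**
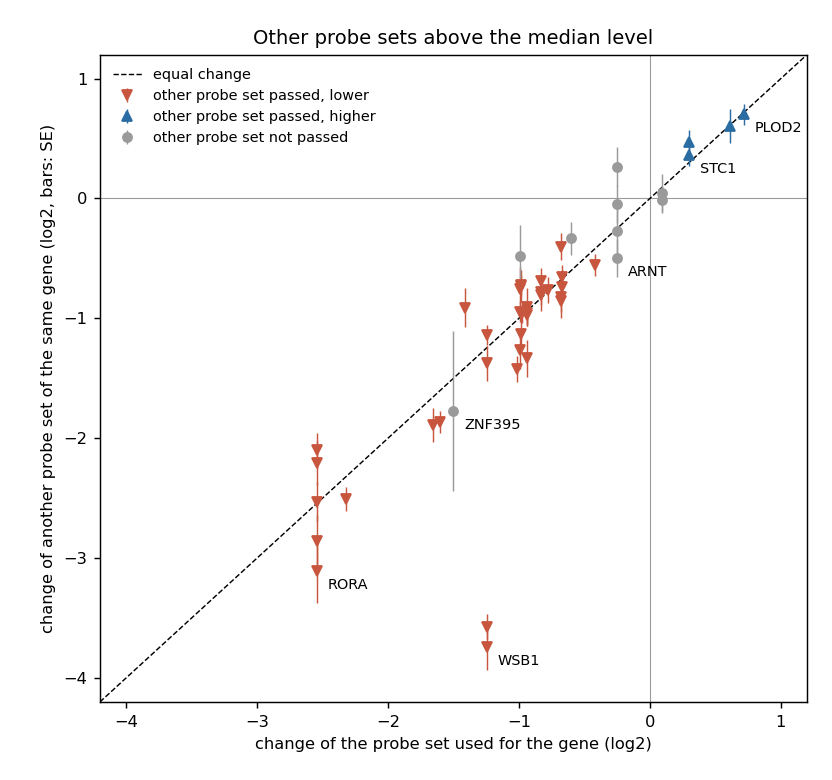
Change of each other probe set above the median level (vertical axis, log2, bars show the SE) against that of the probe set used for the same gene (horizontal axis, log2). Most of the 48 points lie near the dashed line of equal change; 2 probe sets of WSB1 lie far below it, at -3.57 and -3.74.

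The 37 genes lie on 14 chromosomes. For each, the median change of the 10 measured genes on either side was taken (RefSeq order, GRCh38.p14), and these medians ran from -0.51 (around BNIP3L) to 0.23 (around KDM4B), with a median of -0.11 for the 29 targets. The neighbours of RORA, whose own change was -2.54, had a median of 0.07, and 0 of the 20 fell. Around BNIP3L 10 of 20 neighbours fell and 1 rose, around ANKRD37 and around MXI1 8 fell and 0 rose, and around DDIT4 8 fell and 5 rose, where 15.6% of all genes fell. Around STC1, which itself rose, 9 of 20 fell. Other members were not removed from the neighbours, and members that lie near each other can share neighbours. The part of position in these changes was not tested.

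Hypoxia genes outside the set moved in both directions but mostly down. Of 24 others listed, 21 were measured: 15 fell, 5 rose and 1 did not pass, with a median change of -0.88. At least 2-fold falls were seen in 10 of them and at least 2-fold rises in 2, against 4.64% and 3.12% of all genes. Of all genes 15.6% fell and 14.7% rose, with a median change of -0.03. With dim genes left out, 3408 of 11634 fell and 3277 rose. HILPDA, a lipid droplet protein, fell by 2.74 ± 0.09 (adjusted p = 3.74e-06), and ANKZF1 (-2.15 ± 0.08), SPAG4 (-1.87 ± 0.08) and the atypical cyclin CCNG2 (-1.85 ± 0.14) followed. Among 22 genes of glycolysis and of glucose and pyruvate entry, 15 fell, 1 rose and 6 did not pass, with a median change of -0.53. The largest falls there were those of ENO2 (-2.22 ± 0.07), PFKFB4 (-2.06 ± 0.15), PDK1 (-2.06 ± 0.17) and the glucose transporter SLC2A3 (-1.68 ± 0.09). Whether the targets outside glycolysis fell more than these was not tested.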

How the data were processed

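Each of the 8 arrays gave 54675 probe sets, 62 of them controls. The deposited values are linear intensity signals. The submitters' processing notes name RMA, but the authors' intensity values have the same trimmed mean of 200 on every array (2% left out at each end), as MAS 5-type signals do, so the step that made them is not settled, and a change in total RNA per cell cannot be seen. From them log2(signal + 1) was computed, with no further normalization; fold changes are on that scale and understate those of dim genes. Arrays have no read depth; their number limits precision.

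Platform annotation gave 1 symbol to 41097 probe sets, updated through gene IDs to RefSeq (41043 matched). The 1801 probe sets with several symbols were not assigned to any gene, so a gene can lack probe sets that read it. Arrays were compared with limma 3.58.1 (R 4.3.3) and Benjamini-Hochberg adjustment over 19775 genes, and separately over 54613 probe sets. The fit was tested on simulated data. Every member is named; of other lists, up to 4 genes that passed with the largest changes, and any marker. Members and lists were chosen with earlier results of these data known. Alternatives: replicate block, quantile normalization, median centring, pseudocount, dim-gene filter, other probe set choices, intensity trend, array weights, GAPDH covariate, leaving arrays out.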

Additional observations from a re-analysis of the deposited data

Results flagged for a closer look

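In 80 groups of 4 values (37 genes and 3 array measures, 2 groups each), 6 held an array far from the other 3, where chance gives about 1 in 20. Among the sensitive arrays these were array 3 for EGLN1 (a log2 level of 11.72 against 11.57 to 11.59), and array 1 for EGLN2 (3.26 against 1.30 to 1.55, all near background), RORA (10.49 against 10.72 to 10.75) and DDIT4 (13.98 against 13.75 to 13.79). The other 2 concern the 3′ minus 5′ difference of ACTB: sensitive array 3 (0.226 against 0.231) and resistant array 2 (0.133 against 0.102 to 0.107). EGLN1, RORA and DDIT4 kept their direction and their side of the threshold without those arrays.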

How the results depend on the processing

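Over 19 alternatives the changes of the 37 genes gave 690 values, of which 665 kept their direction and their side of the threshold, 12 no longer passed, 6 newly passed and 7 changed sign; 28 genes kept both throughout. All 7 changes of sign were those of VHL, at 0.029 after quantile normalization, 0.043 after median centring, 0.041 with the GAPDH covariate, and -0.24 to 0.17 when leaving out each array. The median of the targets was -1.04 after median centring, -1.22 with the mean of all probe sets and -1.33 when probe sets with a cross-hybridisation suffix were dropped, which leaves 25 members, of which 19 fell and 1 rose.

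Leaving out each array gave 29 falls and 2 to 3 rises among members, target medians of -1.13 to -1.10, medians of -0.059 to 0.13 for subunits, hydroxylases and VHL, and 4928 to 5776 genes called. Leaving out sensitive array 1 and resistant array 4 together, chosen after seeing the data because they were the brightest of their groups, gave 29 falls and 4 rises. With the replicate block 29 members fell, 2 rose and 4356 genes passed, against 5986. Same-numbered arrays correlated by -0.03 to 0.01 in their deviations from the group means and 1 of 8 arrays correlated best with its own number, so the numbers were not taken as pairs. Apart from STC1, the block changed no call among the members. The 1 EGLN2 probe set kept lies too near background for its change to be measured here.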
